A study of Mus musculus with 18 samples.

Results

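Tslp, Il33 and Il25, the genes of 3 cytokines that epithelial cells release as alarm signals, and the 4 genes of their receptor subunits, Crlf2, Il7r, Il1rl1 and Il17rb, were followed through sorted bulge hair follicle stem cells (HF-SCs) and basal keratinocytes (b-KCs) of a psoriasis-like mouse model. The 7 genes were taken by symbol from a table of 23951 genes, and 4 of them (Tslp, Crlf2, Il33 and Il17rb) were expressed well enough to be tested (1 FPKM or more in a minimum of 3 libraries out of 18). FPKM is a read number scaled to the length of the transcript and to the size of the library, so that levels of different genes can be compared. TSLP binds a receptor made of the TSLP receptor chain (Crlf2) and the IL-7 receptor alpha chain (Il7r) and acts through JAK kinases and STAT5. IL-33 is held in the nucleus of keratinocytes and, once released from damaged cells, binds ST2 (Il1rl1) together with the IL-1 receptor accessory protein and recruits MyD88, while IL-25 binds a pair of IL-17 receptor chains of which IL-17RB (Il17rb) is the specific one. In skin these cytokines are best known for starting type 2 immune responses through dendritic cells, innate lymphoid cells, mast cells and basophils, and TSLP for its part in atopic dermatitis.

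The model, DKO*, loses c-Jun and JunB in epidermal cells by a tamoxifen-inducible Cre under the keratin 5 promoter, and a membrane reporter (mT/mG) switches from Tomato to GFP in cells with Cre activity. GFP cells are called mutant and Tom cells non-mutant, and both fractions of HF-SCs (CD45-, CD49f high, CD34+) and b-KCs (CD45-, CD49f high, CD34-) came from the ear skin of the same 3 DKO* mice (814, 815 and 817). Control mice (Co; 810, 825 and 828) carried Cre and mT/mG with wild-type or heterozygous floxed alleles, and the labels do not say which fluorescent fraction of the control cells was taken. All mice were 8 weeks old when tamoxifen began (4 daily injections of 2 mg), ears were taken at day 7, each of the 6 groups has 3 libraries, and both sexes were used without being named per library. Tom cells of DKO* mice are cells in which the reporter did not recombine, from skin in which the psoriasis-like disease was under way.

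The libraries held an implied 16445000 to 26270000 reads, with 3 reads on a transcript of 1 kb worth 0.114 to 0.182 FPKM. Jun ranged from 835.5 to 1086 FPKM in Co libraries, from 29.6 to 88.4 in GFP and from 163 to 614 in Tom, and Junb from 436 to 771.5, 37.2 to 77.5 and 208 to 402, so GFP libraries were lowest and Tom libraries lay between. Cd34, the surface marker of the bulge sort, was at 640 to 889 FPKM in HF-SC Co, 161 to 228 in HF-SC GFP, 260 to 319 in HF-SC Tom and 0.34 to 2.53 in b-KC libraries. It fell on the log2 scale in HF-SC GFP (-1.89, adjusted p = 5.87e-04) and HF-SC Tom (-1.35, adjusted p = 0.00575) by the limma test given below, where 5 and 6 of the 10 bulge markers fell, Cd34 among them, beside 25.4% and 29.6% of all genes that passed in either direction. In b-KC GFP and b-KC Tom 1 and 5 of them fell, beside 24.5% and 30.8%. The part of this shift in the changes of the members was not tested. The HF-SC Tom libraries stood apart by endothelial genes: 12 of 12 endothelial markers reached 1 FPKM and their summed level was 520.6 to 1665 FPKM, against 62.3 to 103 in HF-SC Co, 2.19 to 38.5 in HF-SC GFP and at most 12.05 in any b-KC library. The 12 leukocyte markers, of which Cd74 made up most, summed to 4.52 to 11.2 FPKM in Co libraries and 107 to 808 in DKO* libraries, while Ptprc, which encodes the CD45 used to gate leukocytes out, stayed at or below 0.946 FPKM. An FPKM of exactly 0 can be a failed estimate, since Krt14 is listed at 0 in 3 b-KC libraries and Krt15 in 1 HF-SC Co library.

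Tslp rose in all 4 DKO* populations, most in mutant HF-SCs. The 3 Co libraries of HF-SCs held 1.93, 1.65 and 1.81 FPKM of it, the GFP libraries 133, 131 and 109 and the Tom libraries 27.8, 17.1 and 27.7. For b-KCs, the Co libraries held 7.09, 6.26 and 7.64 FPKM, the GFP libraries 55.2, 52.9 and 30.1 and the Tom libraries 12.9, 13.6 and 24.2 (DKO* values here and below are in the order of mice 814, 815 and 817, and Co values in the order of 810, 825 and 828). Every DKO* library lay above every Co library of its cell type, and the lowest HF-SC GFP library lay above the highest of all other groups. In order of the group means, HF-SC GFP (124 ± 13.6 FPKM, SD, n = 3) was followed by b-KC GFP (46.1 ± 13.9), HF-SC Tom (24.2 ± 6.16), b-KC Tom (16.9 ± 6.35), b-KC Co (7.00 ± 0.692) and HF-SC Co (1.80 ± 0.142). The only neighbours in that order whose libraries overlapped were HF-SC Tom and b-KC Tom.

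**Figure D1:**
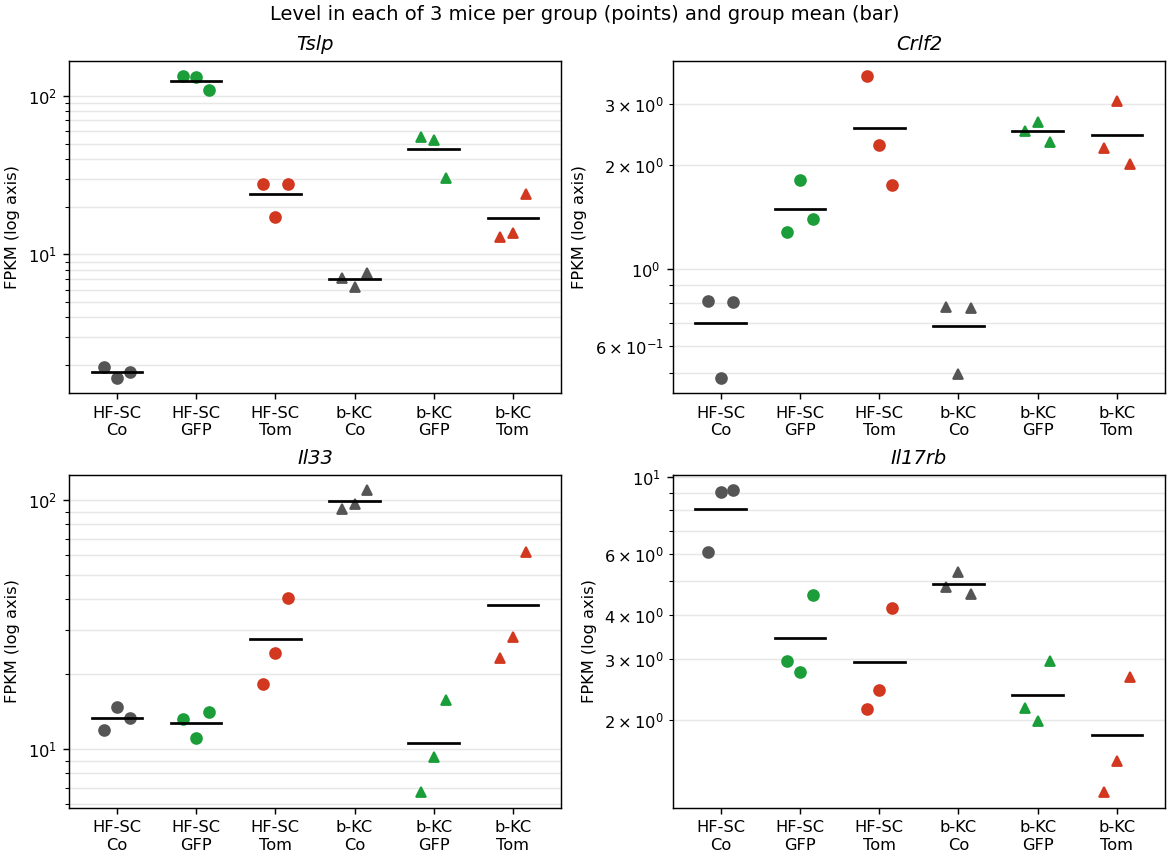
FPKM (log axis) of Tslp, Crlf2, Il33 and Il17rb in each library (points, circles for HF-SCs and triangles for b-KCs, 3 mice per group in the order given in the text) with the group mean (bar). Tslp is highest in HF-SC GFP (109 to 133 FPKM), Il33 in b-KC Co (92.4 to 110), and Il17rb in HF-SC Co (6.08 to 9.14), while Crlf2 stays under 1 FPKM in both Co groups.

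Differences were tested with limma on log2(FPKM + 1), with p-values adjusted by the Benjamini-Hochberg method over 12751 genes, and a difference passed at an adjusted p under 0.01. Against Co, Tslp rose by 5.48 (SE 0.25, adjusted p = 9.89e-10) in HF-SC GFP, by 3.14 (adjusted p = 1.46e-07) in HF-SC Tom, by 2.51 (adjusted p = 4.79e-06) in b-KC GFP and by 1.11 (adjusted p = 0.00214) in b-KC Tom, all on the log2 scale. The b-KC Tom rise no longer passed without control mouse 825 (1.04, adjusted p = 0.0153). Co HF-SCs started lower than Co b-KCs, by a log2 difference of -1.51 (adjusted p = 1.17e-04), and ended higher, so that the rise of HF-SCs exceeded that of b-KCs by 2.97 (SE 0.35, adjusted p = 1.55e-04, interaction term) for GFP and by 2.03 (adjusted p = 0.00101) for Tom. For Tom that difference missed the threshold without DKO* mouse 814 (1.76, adjusted p = 0.0154) or without control mouse 828 (1.98, adjusted p = 0.0101).

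Within a mouse, mutant cells held more Tslp than the non-mutant cells sorted beside them. In HF-SCs the ratio of GFP to Tom FPKM was 4.79, 7.65 and 3.92, and in b-KCs it was 4.30, 3.88 and 1.24. The ratio of b-KCs in mouse 817 is the lowest of the 6, since this mouse had the least Tslp of the 3 in b-KC GFP and the most in b-KC Tom. The log2 difference between GFP and Tom passed in HF-SCs (2.34, SE 0.25, adjusted p = 8.12e-06) and in b-KCs (1.40, SE 0.25, adjusted p = 0.00895). The b-KC difference did not hold across settings. With the mouse as a random block its adjusted p was 0.00322, with the mouse as a fixed block over the 6 libraries it was 0.0752, and leaving out any mouse other than 817 gave adjusted p-values of 0.0246 to 0.259.

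Il33 behaved differently in the 2 cell types. Its level was 92.4, 96.9 and 110 FPKM for b-KC Co, 6.71, 9.34 and 15.7 FPKM for b-KC GFP, and 23.3, 28.3 and 62.0 FPKM for b-KC Tom. The 3 groups did not overlap, and mutant cells were lowest, with a mean 9.41 times below Co, while Tom cells were 2.63 times below Co. Its level was 12.0, 14.8 and 13.4 FPKM for HF-SC Co, 13.2, 11.1 and 14.1 FPKM for HF-SC GFP, and 18.3, 24.4 and 40.4 FPKM for HF-SC Tom. The Co and GFP libraries of HF-SCs overlapped, and all 3 Tom libraries lay above both. Co b-KCs had by far the highest level of the 6 groups, and HF-SC Co, HF-SC GFP and b-KC GFP, the lowest 3, overlapped with each other.

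On the log2 scale, limma gave Il33 a fall of -3.19 (SE 0.33, adjusted p = 7.61e-06) in b-KC GFP and of -1.50 (adjusted p = 0.00202) in b-KC Tom against Co. The b-KC Tom fall missed the threshold without mouse 815 (-1.36, adjusted p = 0.0307), 825 (-1.52, adjusted p = 0.0104) or 828 (-1.43, adjusted p = 0.0153). In HF-SCs the differences from Co did not pass, at -0.06 (95% interval -0.77 to 0.64, adjusted p = 0.894) for GFP and 0.93 (95% interval 0.22 to 1.64, adjusted p = 0.0338) for Tom. The HF-SC Tom difference passed without mouse 817 (0.63, adjusted p = 0.00503). HF-SC Co lay below b-KC Co by a log2 difference of -2.81 (adjusted p = 4.61e-06). The change in HF-SCs differed from that in b-KCs by 3.13 (SE 0.47, adjusted p = 5.78e-04) for GFP and 2.43 (adjusted p = 0.00227) for Tom. Of these, the first missed the threshold without mouse 815 (3.17, adjusted p = 0.0158), and the second without mouse 810, 815, 825 or 828 (adjusted p of 0.0119 to 0.0361). In sorted bulk cells, fewer cells with a transcript and less transcript per cell cannot be told apart.

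In each of the 3 DKO* mice the non-mutant cells held more Il33 than the mutant cells, the reverse of Tslp. The Tom to GFP ratio was 1.39 to 2.87 in HF-SCs and 3.03 to 3.94 in b-KCs, highest in mouse 817 in each. The log2 differences of GFP from Tom were -0.99 (SE 0.33, adjusted p = 0.0840, limma) in HF-SCs and -1.69 (SE 0.33, adjusted p = 0.0169) in b-KCs and did not pass. With the mouse as a random block the b-KC difference passed (adjusted p = 8.93e-04), and with the mouse as a fixed block it did not (adjusted p = 0.0117). It passed without mouse 817 (-1.58, adjusted p = 1.47e-04), and the HF-SC difference passed without mouse 817 (-0.76, adjusted p = 0.00754). The 3 HF-SC Tom libraries, which carried the endothelial transcripts, had 209, 234 and 66.4 FPKM of Pecam1, an endothelial adhesion gene, and the part of endothelial RNA in their Il33 level was not tested. In b-KCs, Pecam1 was at or below 0.881 FPKM in every library.

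The ratio of Tslp to Il33 FPKM set the 3 kinds of cells apart in both cell types, as Tslp alone did. For HF-SCs it was 0.112 to 0.161 with Co, 0.685 to 1.52 with Tom and 7.71 to 11.8 with GFP. For b-KCs it was 0.0646 to 0.0767 with Co, 0.391 to 0.552 with Tom and 1.92 to 8.23 with GFP. Tslp exceeded Il33 in 7 of 18 libraries, all 6 GFP libraries and 1 HF-SC Tom library. None of the 7 comparisons between groups overlapped, each with an exact two-sided permutation p of 0.1, the smallest that 3 against 3 libraries allow. The test treats libraries as unpaired, although GFP and Tom cells, and the Co cells of both types, came from the same mice. Tslp alone overlapped in none of these comparisons either, so the ratio adds no separate support. The log2 ratio rose from Co to GFP by 6.18 in HF-SCs and by 5.99 in b-KCs, and from Co to Tom by 2.74 in each. In HF-SC GFP the shift came from Tslp, with Il33 near its Co level, and in b-KC GFP Tslp was higher and Il33 lower.

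**Figure D2:**
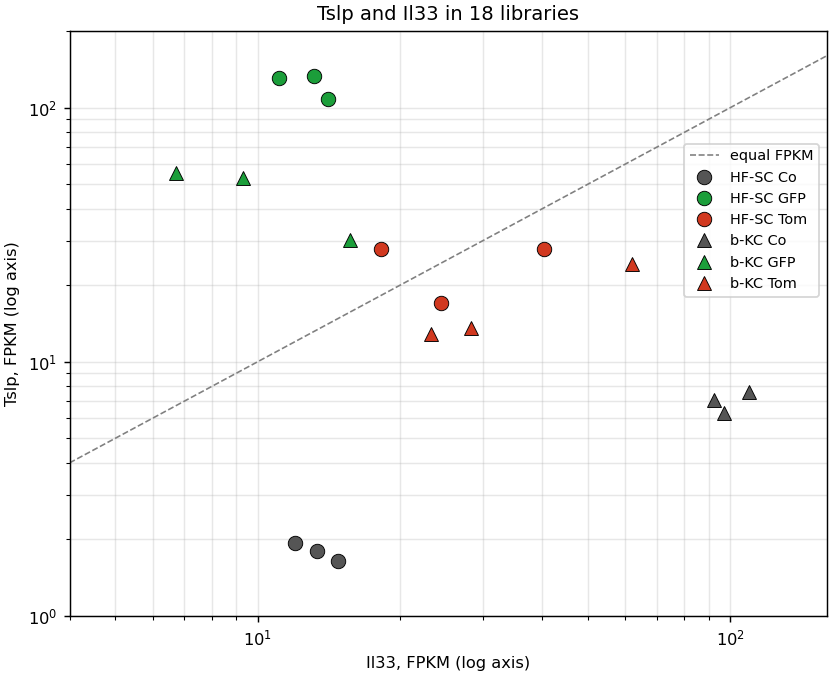
Tslp against Il33 in 18 libraries, both in FPKM on log axes, with circles for HF-SCs and triangles for b-KCs, grey for Co, green for GFP and red for Tom. The dashed line marks equal FPKM: the 6 GFP libraries and 1 HF-SC Tom library lie above it, and the b-KC Co libraries lie farthest to the right at 92.4 to 110 FPKM of Il33.

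Of the TSLP receptor chains, Crlf2 was low in Co cells and higher in DKO* cells of both kinds. HF-SC libraries held 0.808, 0.484 and 0.804 FPKM as Co, 1.28, 1.82 and 1.39 as GFP and 3.62, 2.29 and 1.75 as Tom cells. The b-KC libraries held 0.779, 0.499 and 0.775 FPKM as Co, 2.51, 2.67 and 2.33 as GFP and 2.24, 3.06 and 2.02 as Tom cells. All 12 DKO* libraries lay above all 6 Co libraries, while the GFP and Tom libraries of each cell type overlapped. Summed leukocyte markers were also higher in all DKO* groups, and endothelial ones in HF-SC Tom. The part of leukocyte or endothelial RNA in the Crlf2 levels was not tested. On the log2 scale, which understates changes at such levels, limma gave rises of 1.04 (SE 0.18, adjusted p = 2.19e-04, and 0.0114 with only the compared groups in the fit) in HF-SC Tom, 1.06 (adjusted p = 3.53e-04) in b-KC GFP and 1.02 (adjusted p = 3.00e-04) in b-KC Tom. Crlf2 met the filter of 1 FPKM only through DKO* libraries, so its place among the tested genes was not independent of these rises. In the fit without a filter, over the 19924 genes listed above 0 in any library, they had adjusted p-values of 4.45e-04, 7.32e-04 and 6.29e-04. The HF-SC GFP difference of 0.56 (adjusted p = 0.0202) did not pass, and passed with a pseudocount of 0.1 (1.02, adjusted p = 0.00901). The 2 Co groups differed by 0.01 (95% interval -0.36 to 0.39), and mutant and non-mutant b-KCs by 0.04 (95% interval -0.34 to 0.41). Mutant HF-SCs differed from non-mutant ones by -0.481 (95% interval -0.855 to -0.107, adjusted p = 0.117, limma), which did not pass. Tom exceeded GFP in HF-SCs of all 3 mice.

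Il7r, the chain that Crlf2 pairs with to bind TSLP, was under 1 FPKM in all 18 libraries. The FPKM values correspond to 1, 2 and 1 reads for HF-SC Co, 3, 4 and 64 for HF-SC GFP, 14, 8 and 17 for HF-SC Tom and at most 4 for the b-KC libraries, of which 2 are listed at 0. More than 3 reads were implied in 6 of 18 libraries, and its highest level was 0.839 FPKM in HF-SC GFP of mouse 817. In that library, Ptprc (0.946 FPKM), Csf1r (3.14 FPKM) and Fcer1g (9.40 FPKM) (a general leukocyte gene and 2 genes mostly of myeloid cells) were also at their highest of the 18, while Cd3e, a T cell gene, was at 0.06 FPKM. The part of leukocyte RNA in this value was not tested. All DKO* libraries of each HF-SC fraction lay above HF-SC Co (exact two-sided permutation p = 0.1, the smallest possible), and GFP and Tom overlapped (p = 1, same test).

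Il1rl1, the IL-33 receptor, was also under the filter. Its implied reads were 134, 6 and 5 for HF-SC Co, 20, 48 and 9 for HF-SC GFP, 9, 20 and 26 for HF-SC Tom and at most 8 for the b-KC libraries, of which 1 is listed at 0. The 1.23 FPKM of HF-SC Co mouse 810 was the highest value, beside 0.0633 and 0.0405 FPKM in the other 2 Co libraries. Mast cells are a known site of this receptor, and the 9 mast cell and basophil markers summed to 0.898 to 1.34 FPKM across HF-SC Co, of which Hdc, the enzyme that makes histamine, made up 0.854 to 1.34, with 7 of the 9 listed at 0 throughout. In HF-SC Tom they summed to 36.6 to 54.7 FPKM, of which Hdc made up 36.0 to 51.7, while the mast cell proteases Cpa3 and Tpsb2 were at or below 0.0832 and 0.0350 FPKM and Mcpt4 is listed at 0. Of the other markers, Mcpt8 had 6.20, 0.952 and 0.416 FPKM in HF-SC Tom and Cma1 0.0354 to 0.393, both listed at 0 in HF-SC Co. Fcer1a and Ms4a2 were at or below 0.236 and 0.253 FPKM in HF-SC Tom, and Tpsab1 is listed at 0. The Il1rl1 levels of HF-SC GFP and HF-SC Tom overlapped with those of HF-SC Co, while HF-SC Tom lay above all b-KC libraries and HF-SC GFP above those of b-KC Co and b-KC GFP. The 7 comparisons tested gave an exact two-sided permutation p of 0.2 to 1 (0.1 is the smallest possible).

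Il25 is listed at 0 in 12 of 18 libraries, including all 6 GFP libraries and all 3 b-KC Tom libraries, and the highest value, 0.154 FPKM in HF-SC Co of mouse 828, corresponds to 4 reads. As an exact 0 can be a failed estimate, no upper level or comparison is given for this gene.

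**Figure D3:**
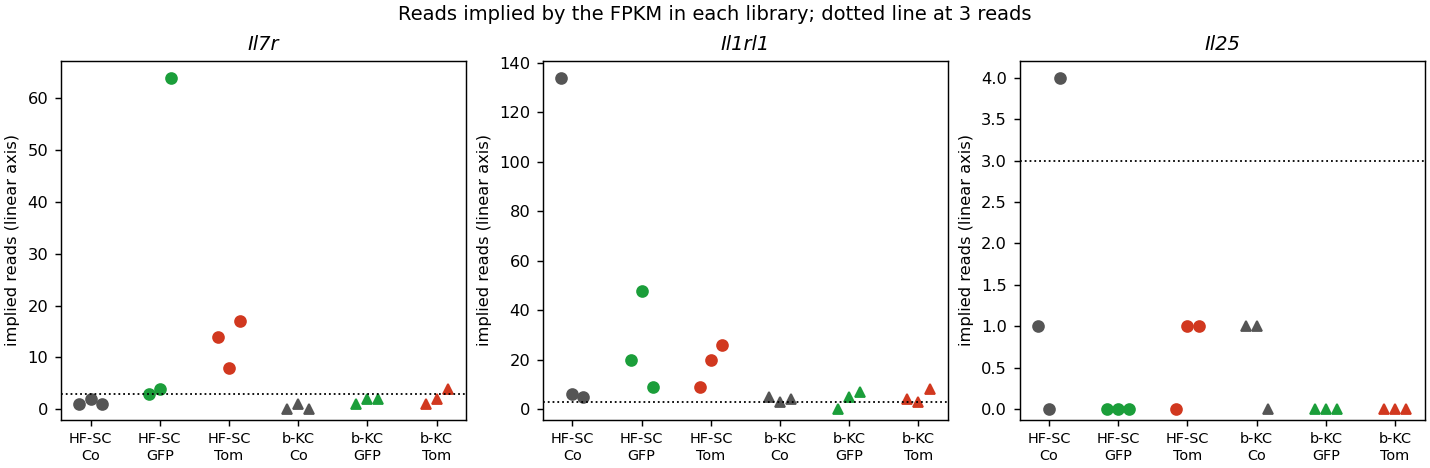
Reads implied by the FPKM of Il7r, Il1rl1 and Il25 in each library (linear axes of different range), with circles for HF-SCs and triangles for b-KCs and a dotted line at 3 reads. Il7r reaches 64 reads in 1 HF-SC GFP library, Il1rl1 134 in 1 HF-SC Co library, and Il25 4 in 1 HF-SC Co library, and values listed at 0 FPKM are drawn at 0 reads.

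Il17rb, the IL-25 receptor chain, was lower in every DKO* population. Among HF-SC libraries, Co cells held 6.08, 9.01 and 9.14 FPKM, GFP cells 2.96, 2.75 and 4.57 and Tom cells 2.14, 2.44 and 4.20. Among b-KC libraries, Co cells held 4.83, 5.33 and 4.61 FPKM, GFP cells 2.16, 1.99 and 2.94 and Tom cells 1.24, 1.52 and 2.65. All DKO* libraries lay below the Co libraries of their cell type, and GFP and Tom overlapped in both. The Co mean was 2.36 times that of HF-SC GFP, 2.76 times that of HF-SC Tom, 2.08 times that of b-KC GFP and 2.73 times that of b-KC Tom.

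On the log2 scale (limma) Il17rb fell in HF-SC GFP (-1.04, SE 0.23, adjusted p = 0.00218), HF-SC Tom (-1.23, adjusted p = 5.01e-04, and 0.0105 with only the compared groups in the fit) and b-KC Tom (-1.11, adjusted p = 0.00122). The b-KC GFP difference lay at the threshold (-0.83, adjusted p = 0.0101) and passed in 5 of 13 alternatives. Among these were the mouse as a random block (adjusted p = 0.00362) and the fit without mouse 817 (-0.95, adjusted p = 1.87e-04). The HF-SC GFP fall missed it without mouse 814, 815, 825 or 828 (adjusted p of 0.0150 to 0.0307), and the b-KC Tom fall without mouse 814 (adjusted p = 0.0122) or 815 (adjusted p = 0.0166). HF-SC Co exceeded b-KC Co by 0.60 (adjusted p = 0.0390), which passed with the mouse as a random block (adjusted p = 0.00587). Mutant and non-mutant cells differed by 0.19 (95% interval -0.30 to 0.67) in HF-SCs and 0.28 (95% interval -0.20 to 0.77) in b-KCs, with GFP above Tom in all 3 mice of each.

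Since c-Jun and JunB are subunits of AP-1, the promoters of the members were searched for the AP-1 motif TGANTCA, which reads the same on both strands. RefSeq promoters (GRCm38.p6, 250 bases before to 50 after the start) were searched for Crlf2, Il7r, Il33, Il1rl1 and Il17rb, 7 promoters in all, and not for Tslp and Il25. Among those searched, Il17rb was the only 1 with a match, at 104 to 98 bases before its start. The motif occurs in 2565 of 32851 promoters of that length (7.81%). The stretch around it (chr14:30008934-30009060, minus strand, GRCm38.p6, motif in capitals) is shown because it holds the only match found. The match is a description of the letters only, and any part of it in the Il17rb levels was not tested.
Il17rb promoter: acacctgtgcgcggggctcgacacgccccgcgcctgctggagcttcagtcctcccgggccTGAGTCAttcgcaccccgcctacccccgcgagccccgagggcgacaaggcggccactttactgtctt

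In the NCBIM37 annotation, whose build is the one the reads were aligned to, Tslp is on chromosome 18 (32975037 to 32979453, plus strand) and Crlf2 on chromosome 5 (109983730 to 109988012, minus strand). Il33 is on chromosome 19 (29999604 to 30035194, plus strand) and Il1rl1 on chromosome 1 (40486415 to 40522260, plus strand). Il7r is on chromosome 15 (9435916 to 9459631, minus strand), and Il25 (55551608 to 55554671, plus strand) and Il17rb (30809327 to 30822082, minus strand) are both on chromosome 14. Tslp, Il7r and Il25 have 1 annotated transcript each, Crlf2 2, Il33 4, and Il1rl1 and Il17rb 5.

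Counted over the 4 members tested, 2 passed in HF-SC GFP against Co (Tslp and Il17rb), where 25.4% of all genes did, and 3 in HF-SC Tom (Tslp, Crlf2 and Il17rb), where 29.6% did. In b-KC GFP 3 passed (Tslp, Crlf2 and Il33), beside 24.5% of all genes, and in b-KC Tom all 4, beside 30.8%. Between GFP and Tom, Tslp alone passed, both in HF-SCs (4.99% of all genes) and in b-KCs (0.486%). Tslp and Il33 passed between HF-SC Co and b-KC Co (38.0% of all genes), and the same pair in the difference of the HF-SC change from the b-KC change, for GFP (5.21%) and for Tom (8.05%). Since Crlf2 met the filter through DKO* libraries alone, these counts are a description. The comparisons with Co share the Co libraries of their cell type and are not independent. The median log2 change of all genes was between -0.06 and 0.02 in the 9 comparisons.

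**Figure D4:**
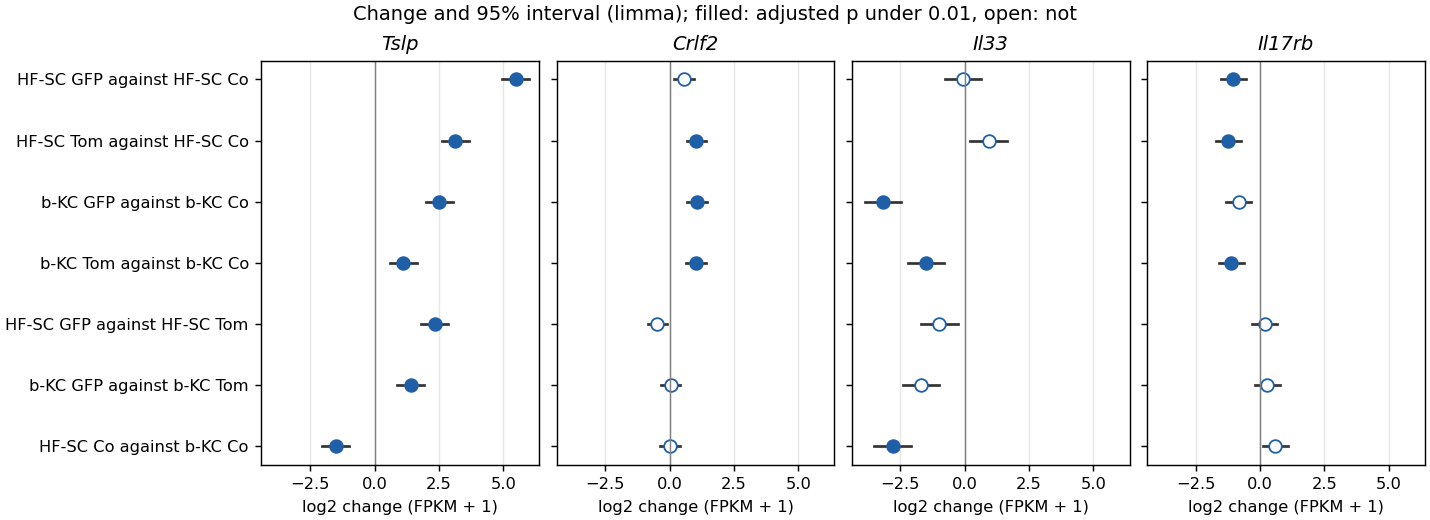
Differences on the log2(FPKM + 1) scale with 95% intervals (limma) for the 4 members tested in 7 comparisons, filled where the adjusted p is under 0.01. Tslp is filled throughout, from 5.48 in HF-SC GFP to -1.51 between the Co groups, Il33 is on the negative side in b-KCs (-3.19 and -1.50) and near 0 in HF-SC GFP, and Crlf2 and Il17rb lie on opposite sides of 0 against Co.

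The 18 partners and effectors of the TSLP receptor were all tested. In HF-SC GFP 3 rose and 1 fell (22.2%, against 25.4% of all genes), with a median log2 change of 0.03, and in HF-SC Tom 7 rose and 1 fell (44.4% against 29.6%, median 0.40). In b-KC GFP 2 rose and 4 fell (33.3% against 24.5%, median -0.31), as in b-KC Tom (33.3% against 30.8%, median -0.40). Stat3, a transcription factor of many cytokine receptors, rose in HF-SC GFP (1.15, adjusted p = 1.62e-04), HF-SC Tom (0.74, adjusted p = 0.00438) and b-KC GFP (0.72, adjusted p = 0.00598), and Stat5a, the usual partner of this receptor, rose in HF-SC GFP (0.57, adjusted p = 0.00613) and HF-SC Tom (0.71, adjusted p = 0.00117). Socs1, an inhibitor of JAK kinases, rose in b-KC GFP (1.30, adjusted p = 0.00168) and b-KC Tom (1.19, adjusted p = 0.00232). Of the genes that fell, Bcl2, a survival gene, fell in HF-SC GFP (-1.03, adjusted p = 1.53e-05) and HF-SC Tom (-1.31, adjusted p = 1.12e-06), and Socs3, another feedback inhibitor, fell in b-KC GFP (-1.37, adjusted p = 9.79e-05) and b-KC Tom (-0.80, adjusted p = 0.00344). Stat5b, the close relative of Stat5a, fell in b-KC GFP (-0.74, adjusted p = 3.64e-04) and b-KC Tom (-0.70, adjusted p = 3.57e-04), as did Pim1, a kinase gene induced by STAT5 (-1.29, adjusted p = 0.00638, and -1.79, adjusted p = 5.32e-04). Jak2 fell in b-KC GFP (-0.67, adjusted p = 0.00464) and Cish, another STAT5-induced inhibitor, in b-KC Tom (-1.36, adjusted p = 0.00628).

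In HF-SC Tom, Il2rg, the common gamma chain of IL-2 family receptors, had 51.6, 48.0 and 18.1 FPKM against 2.09 to 2.66 in HF-SC Co (log2 change 3.45, adjusted p = 1.47e-06, limma), and Csf2rb, the shared beta chain of the GM-CSF, IL-3 and IL-5 receptors, had 23.5, 25.4 and 11.4 against 0.758 to 1.15 (3.32, adjusted p = 2.36e-08). Csf2rb met the filter only through the HF-SC Tom libraries, and without a filter its adjusted p was 1.42e-07. In HF-SC GFP, Il2rg also rose (1.42, adjusted p = 0.00409), and Csf2rb changed by -0.30 (adjusted p = 0.284). In HF-SC Tom both were highest in mice 814 and 815, as Pecam1 was, and the part of endothelial RNA in these values was not tested. In the b-KC libraries Csf2rb was at or below 0.0954 FPKM.

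Of the 15 genes of IL-33 signalling and processing, 13 were tested. In HF-SC GFP 5 rose and none fell (38.5%, beside 25.4% of all genes, median 0.53), and in HF-SC Tom 6 rose and none fell (46.2% beside 29.6%, median 0.64). In b-KC GFP 2 rose and 1 fell (23.1% beside 24.5%, median 0.11) and in b-KC Tom 1 rose and 1 fell (15.4% beside 30.8%, median -0.06), shares near or under that of all genes. Irak3, an inhibitory kinase-like protein of the MyD88 pathway, rose in all 4, with 3.42 to 4.45 FPKM in HF-SC Co against 16.5 to 25.1 in HF-SC GFP (2.23, adjusted p = 4.90e-06) and 9.84 to 13.9 in b-KC Co against 26.8 to 43.8 in b-KC GFP (1.60, adjusted p = 2.02e-04). Myd88, the adaptor, rose in HF-SC GFP (1.24, adjusted p = 1.40e-06), HF-SC Tom (0.83, adjusted p = 5.58e-05) and b-KC GFP (0.78, adjusted p = 1.98e-04). The kinases Irak4 and Irak2 rose in both HF-SC fractions, by 0.53 and 0.54 in GFP (adjusted p = 0.00146 and 0.00256) and by 0.66 and 0.64 in Tom (adjusted p = 1.77e-04 and 5.95e-04). Il1rap, the second chain of the IL-33 receptor, rose in HF-SC GFP (0.97, adjusted p = 0.00103). Tollip, which restrains this pathway, fell in b-KC GFP (-1.39, adjusted p = 3.50e-04) and b-KC Tom (-1.48, adjusted p = 1.31e-04).

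The 9 genes of IL-25 signalling were tested, and 2 rose in HF-SC GFP, 2 rose and 1 fell in HF-SC Tom, and 1 rose and 1 fell in each b-KC fraction, with medians of 0.43, 0.38, -0.10 and -0.24. These shares (22.2%, 33.3%, 22.2% and 22.2%) were near or under those of all genes (25.4%, 29.6%, 24.5% and 30.8%). The fall in HF-SC Tom was that of Traf3ip2, an adaptor of IL-17 receptors (-0.56, adjusted p = 0.00266), and the other calls were of Zc3h12a and Tnfaip3, feedback inhibitors shared with other inflammatory pathways. Zc3h12a, an RNase that degrades cytokine mRNAs, rose in all 4, by 2.39 (adjusted p = 1.62e-07) in HF-SC GFP and 0.65 (adjusted p = 0.00875) in b-KC Tom. Tnfaip3, the ubiquitin-editing enzyme A20, rose in HF-SC GFP (1.63, adjusted p = 2.14e-05) and HF-SC Tom (1.74, adjusted p = 8.78e-06) and fell in b-KC GFP (-0.78, adjusted p = 0.00791) and b-KC Tom (-1.40, adjusted p = 9.01e-05).

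Among 33 known regulators of epithelial TSLP, the share that passed was near that of all genes in HF-SCs and above it in b-KCs. In HF-SC GFP 2 rose and 6 fell (24.2%, beside 25.4% of all genes, median -0.22) and in HF-SC Tom 3 rose and 7 fell (30.3% beside 29.6%, median -0.27). In b-KC GFP 3 rose and 13 fell (48.5% beside 24.5%, median -0.79) and in b-KC Tom 1 rose and 17 fell (54.5% beside 30.8%, median -0.97). Jun and Junb, the deleted genes, are on this list, and both were among those that fell in HF-SC GFP, b-KC GFP and b-KC Tom. Jund, another Jun family gene, fell in HF-SC GFP (-1.30, adjusted p = 6.49e-04), HF-SC Tom (-1.38, adjusted p = 3.22e-04) and b-KC Tom (-1.46, adjusted p = 2.36e-04). Of those that rose, Il1r1, an IL-1 receptor chain, did so in HF-SC Tom (1.41, adjusted p = 5.88e-05) and Nfkb1, an NF-κB subunit, in b-KC GFP (0.51, adjusted p = 0.00345) and b-KC Tom (0.76, adjusted p = 1.37e-04). Nr3c1, the glucocorticoid receptor, which restrains TSLP, fell in all 4, with 98.5 to 104 FPKM in HF-SC Co, 35.7 to 63.3 in HF-SC GFP and 29.5 to 46.9 in HF-SC Tom, and 25.1 to 30.1 in b-KC Co, 9.06 to 15.9 in b-KC GFP and 8.30 to 10.6 in b-KC Tom. Its log2 changes were -1.08 (adjusted p = 0.00110), -1.43 (adjusted p = 8.13e-05), -1.25 (adjusted p = 4.96e-04) and -1.50 (adjusted p = 7.03e-05). St14, the protease matriptase, rose in HF-SC GFP (1.06, adjusted p = 2.83e-05) and b-KC GFP (0.69, adjusted p = 0.00147). Prss8, the protease prostasin, fell in all 4, by -0.82 (adjusted p = 0.00268) in HF-SC GFP, -1.32 (adjusted p = 3.98e-05) in HF-SC Tom, -0.88 (adjusted p = 0.00191) in b-KC GFP and -1.08 (adjusted p = 2.89e-04) in b-KC Tom. Klk5, the protease that activates PAR2 upstream of TSLP, fell in b-KC GFP (-1.81, adjusted p = 0.00804) and b-KC Tom (-3.23, adjusted p = 9.12e-05). The other kallikreins of the list passed in none of the 4, with log2 changes of 0.93 to 2.60 (adjusted p of 0.0155 to 0.344) for Klk8 and of -1.57 to 1.94 (adjusted p of 0.0506 to 0.894) for Klk7. Their group means in HF-SC Co and HF-SC GFP were 4.36 and 39.6 FPKM for Klk8 and 8.86 and 47.4 for Klk7. Notch2, whose pathway restrains TSLP in epidermis, fell in b-KC GFP (-1.21, adjusted p = 2.28e-04) and b-KC Tom (-1.29, adjusted p = 7.60e-05).

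Of the 21 type 2 cytokines, receptors and chemokines, 9 were tested, and the cytokine genes Il4, Il5, Il9, Il13 and Il31 were all under the filter. In HF-SC GFP 4 rose and 1 fell, in HF-SC Tom 5 rose and 1 fell, in b-KC GFP 3 rose and in b-KC Tom 4 rose, with medians of 0.87, 2.33, 0.78 and 1.10. Of the 9, Csf2rb and the chemokines Ccl8 and Ccl11 met the filter only with DKO* libraries counted, so these counts are a description and nothing is read from them against the 25.4%, 29.6%, 24.5% and 30.8% of all genes that passed. Il4ra, the signalling chain of the IL-4 and IL-13 receptors, rose in HF-SC GFP (1.73, adjusted p = 8.49e-06), HF-SC Tom (2.33, adjusted p = 3.51e-07) and b-KC Tom (1.10, adjusted p = 4.70e-04). Il13ra2, which binds IL-13 as a decoy, went from 0.571 to 1.52 FPKM among HF-SC Co to 76.5, 45.3 and 21.9 FPKM for HF-SC GFP, and from 4.38 to 7.43 FPKM among b-KC Co to 124, 132 and 38.3 FPKM for b-KC GFP. It rose in all 4, by 4.55 (adjusted p = 9.60e-05) in HF-SC GFP, 3.15 (adjusted p = 0.00164) in HF-SC Tom, 3.70 (adjusted p = 7.49e-04) in b-KC GFP and 2.53 (adjusted p = 0.00713) in b-KC Tom, with mouse 817 lowest in each. Areg, an EGF receptor ligand made by epithelium and innate lymphoid cells, rose in all 4, most in HF-SC GFP (4.01, adjusted p = 1.87e-06). Osmr, the oncostatin M receptor chain that also serves IL-31, rose in HF-SC GFP (0.87, adjusted p = 6.24e-04), HF-SC Tom (0.90, adjusted p = 3.94e-04) and b-KC GFP (0.78, adjusted p = 0.00174). Ccl8 had 1.09 to 49.8 FPKM in b-KC Tom against at most 0.192 in b-KC Co (3.85, adjusted p = 0.00644, and 0.0148 without a filter). Il31ra, a chain of the IL-31 receptor, fell in HF-SC GFP (-2.08, adjusted p = 1.09e-06) and HF-SC Tom (-2.54, adjusted p = 1.10e-07) from 106 to 115 FPKM in HF-SC Co, and was at or below 0.587 FPKM in all b-KC libraries.

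Over the 18 libraries, the genes whose log2(FPKM + 1) followed Tslp most closely were Il1a, another epithelial cytokine (Pearson r = 0.958), Tnfsf9 (0.938), Slpi, an antiprotease (0.937), Cldn7, a tight junction claudin (0.930), and Slc6a14, an amino acid transporter (0.929). Like Tslp, Il1a had its highest group mean in HF-SC GFP (69.1 FPKM) and its lowest in HF-SC Co (0.830 FPKM), whereas Slpi was highest in b-KC GFP (241 FPKM). Crlf2 was followed by Kcns3 (0.936), Ifnar2, an interferon receptor chain (0.936), and Gsdmc2, a gasdermin (0.921). Il33 was followed by Card10 (0.913), Wnt3a (0.909) and Bmp1 (0.908), and Il17rb by Tmco3 (0.976), Atp6v0e2 (0.974) and Ak1 (0.972). Among the members themselves, Crlf2 and Il17rb ran most strongly in opposite directions (r = -0.870), while Tslp and Il33 had r = -0.335. These correlations describe 18 libraries from 6 mice in 6 groups, which share group differences, and genes chosen for likeness out of 12751.

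The DKO* mice were not alike. Il33 and Il17rb were highest in mouse 817 in 4 of 4 DKO* populations, nearest to Co in b-KCs, and Crlf2 was lowest in mouse 817 in 3 of 4. Tslp was lowest in this mouse in both GFP populations and highest in b-KC Tom. Jun (30.4 and 29.6 FPKM) and Junb (38.6 and 37.2 FPKM) were lowest of all libraries in the GFP cells of mouse 817, and in its Tom cells Jun was highest of the 3 DKO* mice (614 and 400.4 FPKM). Summed endothelial markers were lowest in mouse 817 among HF-SC Tom libraries. Whether any of these values had a part in the others was not tested.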

How the data were processed

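RNA of 18 libraries of sorted ear skin cells (3 mice in each of 6 groups, by the sample labels) had been amplified with SMART-Seq v4, sequenced without strand information as 51-base single-end reads, aligned to NCBI37/mm9 with TopHat 2.0.10 and Bowtie 1.0.0, and quantified with Cufflinks 2.2.1 (versions from the study's methods and the submitters' processing notes). The values the authors deposited are FPKM, scaled to the length of each transcript and the size of each library. Of 23951 genes, the 12751 reaching 1 FPKM in 3 or more libraries entered limma 3.58.1 (R 4.3.3, eBayes with a trend, log2(FPKM + 1), all 18 libraries, 1 mean per group), followed by Benjamini-Hochberg adjustment within each comparison. A difference passed at an adjusted p under 0.01. Single values were compared by exact two-sided permutation tests (scipy 1.17.1). These treat all libraries as unpaired, also where both groups came from the same mice. Rescaling the libraries by median ratio, as an alternative, would shift single libraries by -0.08 to 0.11 on the log2 scale. This fit was also tested on simulated data with known changes.

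Depth was inferred from 6914 single-transcript genes (NCBIM37), whose low FPKM values fell within 0.1 of a whole number of reads in 80.3% to 85.3% of cases. Any scaling the authors applied between libraries is part of it, and implied reads use the longest annotated transcript. The floor of 3 reads covers counting error only, as amplified reads carry no molecular identifiers. Reads of overlapping or antisense genes cannot be told apart without strand.

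The mouse numbers in the labels pair the samples: the same mouse gave GFP and Tom cells of both types. Over 21 pairs of libraries of the same mouse, deviations from the group means correlated at 0.084 to 0.70, and fits with a replicate block were made beside those without it (limma's duplicateCorrelation, consensus correlation 0.274, or the mouse as a fixed term).

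The 7 genes, the gene lists and the marker lists were chosen with earlier results of these data known. Named are all 7 genes, up to 4 genes per pathway list and comparison with Co by smallest adjusted p, the 5 genes most like Tslp and 3 for each other tested member, the defining markers and Jun and Junb, and Csf1r, Fcer1g, Hdc, Pecam1, Csf2rb, Klk7 and Klk8 were singled out within those lists after their values were seen. One gene named by this rule is not reported here. Other alternatives were another pseudocount, other filters and thresholds, only the groups compared, no trend, and each mouse left out.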

Additional observations from a re-analysis of the deposited data

Results flagged for a closer look

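Differences between the cell types in Tslp and Il33 were marked because a test of the difference itself (limma's interaction term) passed. For Tslp the rise of HF-SCs exceeded that of b-KCs by 2.97 (log2) for GFP (from 1.80 to 124 FPKM in HF-SCs and from 7.00 to 46.1 in b-KCs) and by 2.03 for Tom. The signed log2 change of Il33 in HF-SCs lay above that in b-KCs by 3.13 for GFP and by 2.43 for Tom. For GFP, Il33 fell from 99.6 to 10.6 FPKM in b-KCs and went from 13.4 to 12.8 in HF-SCs. These terms share the Co libraries of each cell type, and the HF-SC Tom libraries are those with summed endothelial markers of 520.6 to 1665 FPKM.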

How the results depend on the processing

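Across 16 alternatives, 425 of 471 recomputed log2 changes of single members kept their direction and their side of the threshold, 27 no longer passed, 13 newly passed and 6 turned their sign. The 6 all came from leaving out a mouse, and none of them passed in either form: Il33 in HF-SC GFP against Co was 0.028 without mouse 815 and 0.005 without 825 (range over the mice -0.135 to 0.028), and Crlf2 in b-KC GFP against Tom was -0.002 without 814 and -0.014 without 817 (range to 0.129). The Tom difference between cell types was -0.227 for Crlf2 without 814 (range to 0.179) and 0.011 for Il17rb without 828 (range from -0.275). Tslp passed against Co for HF-SC GFP, for HF-SC Tom and for b-KC GFP, and for HF-SC GFP against Tom, at an adjusted p under 0.01 in every refit, and so did Il33 for b-KC GFP against Co, Tslp and Il33 between the Co groups and the GFP difference between cell types for Tslp.

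The number of the 4 tested members that passed moved as follows, where moves by 1 member that stayed within 1.5 times are given only for the first setting. With a log2 change of at least 2 also required, it was 1 for HF-SC GFP, 1 for HF-SC Tom, 2 for b-KC GFP and 0 for b-KC Tom against Co, 0 in b-KC GFP against Tom and 1 between the Co groups. With only the groups compared it was 1 in HF-SC Tom against Co and 0 in b-KC GFP against Tom. For b-KC GFP against Tom it was also 2 at an adjusted p under 0.05, 0 without a filter, 2 with the mouse as a random replicate block and 0 with it as a fixed replicate block. Leaving out 1 mouse at a time gave 1 to 2 in HF-SC GFP against Co, 2 to 4 in b-KC Tom against Co, 1 to 2 in HF-SC GFP against Tom, 0 to 2 in b-KC GFP against Tom, 1 to 2 for the GFP and 0 to 2 for the Tom difference between cell types. The replicate block changed the call of 5 of 48 values, Tslp and Il33 in b-KC GFP against Tom, Il17rb in b-KC GFP against Co and, in both blocks, Il17rb between the Co groups. The filter at 5 FPKM removed Crlf2. The cause of these moves was not tested.

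Il25 is listed at 0 in 12 of 18 libraries, and an exact 0 can be a failed estimate, so its values bear no comparison. Il7r and Il1rl1 were tested only by exact permutation, where 3 against 3 libraries cannot give a p below 0.1. Low levels on the log2(FPKM + 1) scale understate changes of Crlf2. Read totals were inferred and not counted.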
